A study of Mus musculus with 10 samples.

Results

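Expression of 10 genes of leukocyte adhesion was followed in bulk RNA-seq of mouse peritoneal macrophages: the adhesion molecules Vcam1, Icam1 and Icam2, the integrin alpha subunits Itgam, Itgax, Itgal, Itga4 and Itgav, and the integrin beta subunits Itgb1 and Itgb2. They were taken by name from the 39488 rows of the gene count table, where all 10 were found, and all 10 were among the 12654 genes that were tested. Vcam1, Icam1 and Itgal rose in the ox-LDL group and Itga4 fell, whereas for the other 6 genes the difference did not pass an adjusted p of 0.01.

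The cells were collected from the peritoneal cavity of C57BL/6 mice aged 8 weeks, after thioglycollate, an irritant that draws monocytes into the cavity. The ox-LDL group (5 libraries) was primed with LPS at 100 ng/ml, a bacterial ligand of Toll-like receptor 4, and then given oxidized low-density lipoprotein (ox-LDL) at 100 µg/ml for 16 h. The control group (5 libraries) is labelled as untreated, so by the labels the effects of LPS and of ox-LDL cannot be told apart. The wording of the design leaves it possible that the controls were primed with LPS too, in which case a fold change would reflect ox-LDL alone, and which of these holds is not settled. The series describes the 5 libraries of each group as biological replicates but does not say which animals or cultures gave them, so p-values measure the spread between these libraries.

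Integrins are pairs of 1 alpha and 1 beta chain that bind matrix proteins or counter-receptors on other cells. The beta2 chain, Itgb2 (CD18), pairs with Itgal (LFA-1), Itgam (Mac-1), Itgax (p150,95) and Itgad, and is restricted to leukocytes. LFA-1 binds the ICAM molecules, and Mac-1 binds ICAM-1, complement fragment iC3b and fibrinogen. Itga4 with Itgb1 forms VLA-4, the receptor for VCAM-1, and Itgav pairs with several beta chains to bind matrix and apoptotic cells. VCAM-1 and ICAM-1 are best known on activated endothelium, where cytokines raise them through NF-kappaB, and both can also be made by macrophages.

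Promoter sequence is shown because the 2 adhesion molecules with the largest increases are textbook NF-kappaB targets and because a member that rose can be set beside a member that fell and a member that was not called. The RefSeq table (build GRCm38.p6) held promoters for 6 of the 10 genes, Icam1, Itgam, Itgax, Itga4, Itgav and Itgb1. Vcam1, Icam2, Itgal and Itgb2 had no entry. The 250 bases before the annotated start are given 5′ to 3′ for Icam1 (chr9:21015690-21015939, plus strand), Itga4 (chr2:79255176-79255425, plus strand) and Itgb1 (chr8:128685404-128685653, plus strand). Capitals mark matches to the kappaB-type pattern GGNNNTTCC or to the PU.1 core GAGGAA on either strand.
Icam1: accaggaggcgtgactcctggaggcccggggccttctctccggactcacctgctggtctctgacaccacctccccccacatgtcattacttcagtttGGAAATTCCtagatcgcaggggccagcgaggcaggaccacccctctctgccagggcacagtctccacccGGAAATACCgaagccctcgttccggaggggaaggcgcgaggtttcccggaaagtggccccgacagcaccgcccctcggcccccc
Itga4: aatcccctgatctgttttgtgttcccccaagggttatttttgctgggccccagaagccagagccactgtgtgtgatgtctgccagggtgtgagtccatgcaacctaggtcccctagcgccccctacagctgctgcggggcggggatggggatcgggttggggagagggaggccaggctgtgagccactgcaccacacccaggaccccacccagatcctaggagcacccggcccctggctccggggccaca
Itgb1: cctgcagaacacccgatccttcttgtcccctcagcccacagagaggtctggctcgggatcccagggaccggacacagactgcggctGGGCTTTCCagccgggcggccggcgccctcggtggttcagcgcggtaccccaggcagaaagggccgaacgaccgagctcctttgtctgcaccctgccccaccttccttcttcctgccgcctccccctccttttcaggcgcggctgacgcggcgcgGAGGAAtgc
In Icam1, GGAAATTCC lay at -153 to -145 and reads as a match on both strands, and GGAAATACC at -84 to -76 matched on the antisense strand. Itgb1 held GGGCTTTCC at -164 to -156 and GAGGAA at -9 to -4, and Itga4 held neither pattern. Of all 32851 promoter windows of this length in the table, 15.7% held GGNNNTTCC and 23.3% held GAGGAA, so such matches are common. A longer kappaB consensus, which shares its first letters with GGNNNTTCC and was in 13.0% of windows, and the core of the interferon-stimulated response element, in 2.98%, were in none of the 6 windows. The AP-1 pattern TGANTCA, in 6.75% of windows, was in Itgax alone, at -56 to -50, and GAGGAA occurred in both Itgam and Itgav, with 2 matches each. Thus a kappaB-type pattern stood both before Icam1, which rose, and before Itgb1, which was not called.

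Depth was even, with total counts of 20094647 to 20687289 in control and 19257131 to 20358017 in ox-LDL libraries. Values are CPM, counts scaled to a common library size with TMM factors, and are given as mean ± SD over n = 5 libraries. TMM factors were 0.916 to 1.18 in control libraries and 0.593 to 1.19 in ox-LDL libraries, with the lowest in ox-LDL replicate 2. That library, and control replicates 1 and 4, also stood apart in how expression depended on gene length. In these 3 libraries a gene's deviation from its group mean correlated with its length at a Spearman's rho of -0.66, -0.59 and -0.49 across 12654 genes, against 0.07 to 0.53 in the other 7. Macrophage markers were abundant in every library (8 genes, summed at 22720 to 42690 CPM for controls and 13190 to 28340 CPM for ox-LDL libraries, scaled by library size alone). Of the macrophage markers 2 rose and 1 fell, and Adgre1 (F4/80) was at 291 ± 66.0 and 1137 ± 551 CPM on the same scale.

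Differences are log2 fold changes of ox-LDL over control from a quasi-likelihood fit in edgeR, with the adjusted p taken over all 12654 genes. At an adjusted p below 0.01, 14.7% of all genes were called, 9.4% higher and 5.35% lower. Against this background 3 of the 10 genes were called higher and 1 lower. With an absolute log2 fold change above 2 as well, 4.78% of all genes were higher and 1.93% lower, and Vcam1, Icam1 and Itgal were the 3 members that met it. The values of the 2 groups did not overlap for 20.7% of all genes, and for 5 of the 10 members, 3 higher in ox-LDL libraries (11.6% of all genes) and 2 lower (9.11%). The median log2 fold change was 0.25 over the 10 members and 0.10 over all genes. In bulk RNA, fewer cells of a type and less RNA per cell cannot be told apart.

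**Figure D1:**
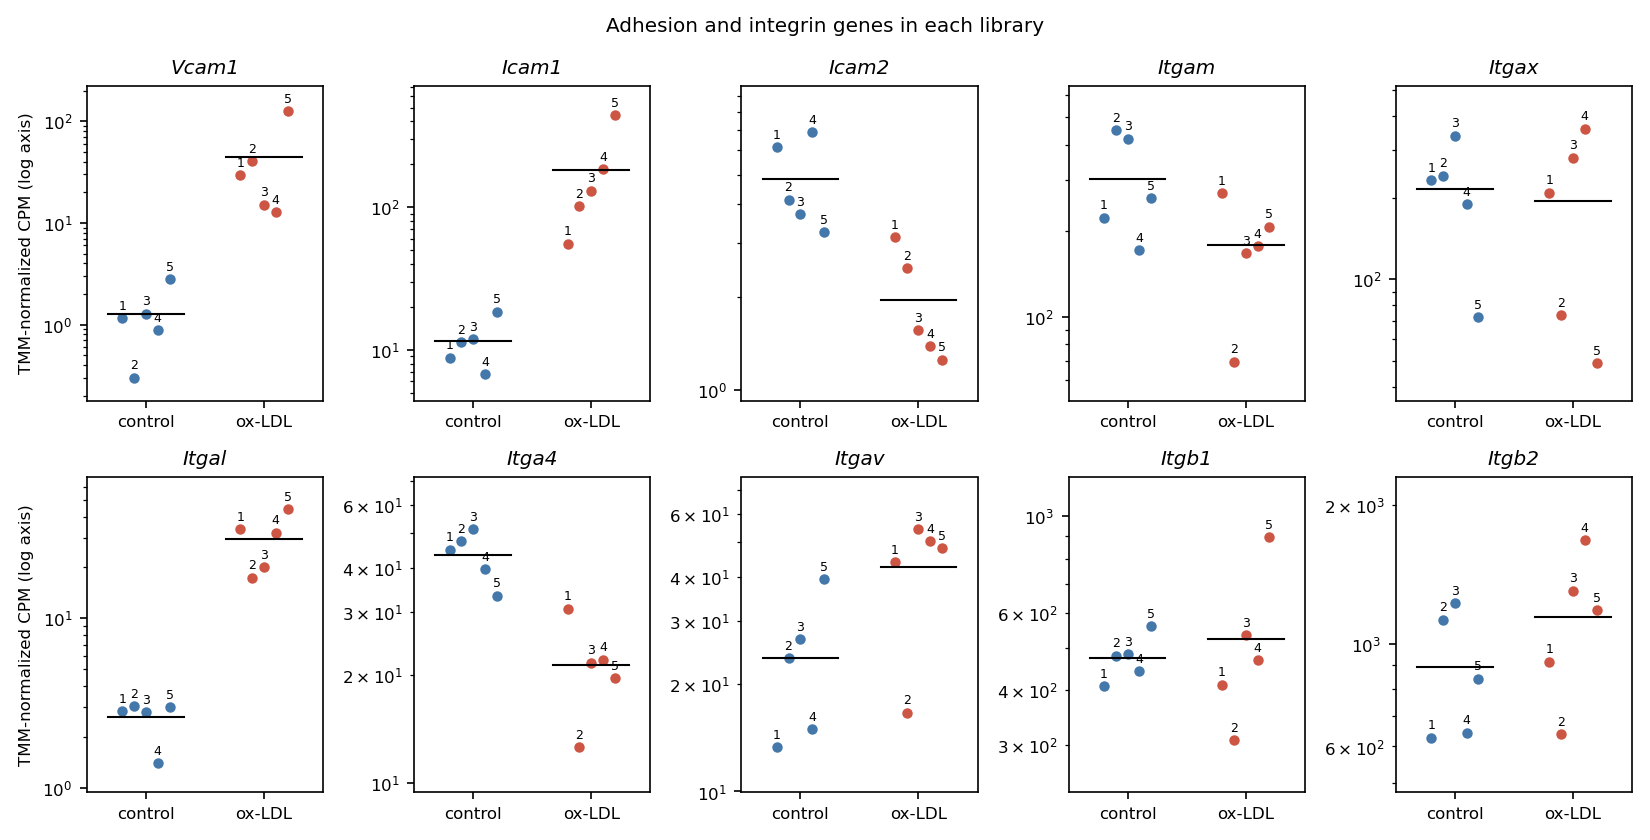
Expression of the 10 genes in each library, in CPM on a log axis, with control and ox-LDL libraries as points numbered by replicate and the group means as bars. The points of the groups are separate for Vcam1, Icam1, Itgal, Itga4 and Icam2 and overlap for the other 5 genes.

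Vcam1 (NCBI gene 22329, mm9 chr3:115812938-115832606, minus strand) encodes VCAM-1, the endothelial-type ligand of the alpha4 integrins. It was at 1.16, 0.300, 1.28, 0.876 and 2.78 CPM in control replicates 1 to 5, which rests on 21, 7, 30, 17 and 64 counts. In ox-LDL replicates 1 to 5 it was at 29.5, 40.7, 15.1, 12.7 and 126.7 CPM. Every ox-LDL library lay above every control library, and replicate 5 was the highest library of both groups. The mean rose from 1.28 ± 0.92 to 44.9 ± 47.1 CPM, a log2 fold change of 5.12 (SE 0.76, 95% interval 3.37 to 6.87, adjusted p = 0.000521). The SD of the ox-LDL group exceeded its mean, and without ox-LDL replicate 5 the log2 fold change was 4.26 with an adjusted p of 0.000607. Without replicate 5 of both groups it was 4.69.

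Icam1 (gene 15894, chr9:20820404-20833241, plus strand) encodes ICAM-1, the main ligand of LFA-1 and Mac-1. Its CPM in control replicates 1 to 5 was 8.80, 11.3, 11.9, 6.75 and 18.5. In ox-LDL replicates 1 to 5 it was 55.5, 101.6, 130.7, 184.2 and 442.3. The groups were separate, and again replicate 5 had the highest value of each. Icam1 rose from 11.4 ± 4.45 to 183 ± 152 CPM, a log2 fold change of 4.00 (SE 0.54, 95% interval 2.75 to 5.24, adjusted p = 0.000287). Without ox-LDL replicate 5 the log2 fold change was 3.36, with an adjusted p of 0.000232. An annotated antisense transcript, Mir1900, overlaps exons of Icam1, and since the use of strand in counting is not stated, reads of the 2 cannot be told apart.

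Icam2 (gene 15896, chr11:106238970-106249389, minus strand) encodes ICAM-2, a ligand of LFA-1 found on resting endothelium and leukocytes. It was at 6.14, 4.15, 3.72, 6.85 and 3.26 CPM in control libraries and at 3.13, 2.48, 1.56, 1.39 and 1.25 CPM in ox-LDL libraries, in replicate order. Each ox-LDL value was below each control value, with a gap between 3.13 and 3.26 CPM. The difference, -1.29 on the log2 scale (SE 0.34, 95% interval -2.07 to -0.52), had an adjusted p of 0.014 and so did not pass. It passed in 7 of 25 alternative settings, over which its adjusted p was 0.000777 to 0.0423. The lowest was with DESeq2, which made 11 false calls on simulated data where edgeR made 0. Another pass was the same adjusted p of 0.014 read at a threshold of 0.05. The direction was that of a lower value in each setting, opposite to Icam1.

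Of the alpha chains that pair with Itgb2, Itgal was the 1 that rose. Itgal (gene 16408, chr7:134439774-134478651, plus strand) encodes the alphaL chain of LFA-1, the lymphocyte-type receptor for ICAM-1 and ICAM-2. It was at 2.82, 3.04, 2.78, 1.39 and 3.00 CPM in control libraries, and at 33.8, 17.4, 20.1, 32.1 and 44.0 CPM in ox-LDL libraries. The lowest ox-LDL library held more than 5 times the CPM of the highest control library. The mean rose from 2.61 ± 0.69 to 29.5 ± 10.9 CPM, a log2 fold change of 3.50 (SE 0.32, 95% interval 2.77 to 4.22, adjusted p = 2.5e-05), the smallest adjusted p of the 10 genes.

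Itgam and Itgax encode the alpha chains of Mac-1 (CD11b) and p150,95 (CD11c), the typical beta2 integrins of macrophages. Itgam (gene 16409, chr7:135206154-135271674, plus strand) was at 222.0, 450.4, 419.9, 170.7 and 259.5 CPM in control libraries and at 270.2, 69.4, 166.9, 176.1 and 206.4 CPM in ox-LDL libraries. The groups overlapped, with ox-LDL replicate 2 the lowest of the 10. The difference between 304.5 ± 124 and 178 ± 72.8 CPM, -0.78 on the log2 scale (95% interval -1.62 to 0.07), did not pass (adjusted p = 0.141). It did not pass in any of 25 alternative settings, over which the adjusted p was 0.0156 to 0.297. The lowest was with the trend of expression on gene length removed in each library, where the log2 difference was -0.97. Itgax (gene 16411, chr7:135273061-135294171, plus strand) was at 232.1, 241.3, 339.3, 189.1 and 72.4 CPM in control libraries and at 209.0, 73.6, 281.0, 360.3 and 49.0 CPM in ox-LDL libraries. Replicate 5 was the lowest library of each group, where it had been the highest for Vcam1 and Icam1. For Itgax the log2 difference was -0.14 (95% interval -1.37 to 1.08, adjusted p = 0.877), an interval that leaves room for a change of more than 2-fold in either direction, and its sign turned without control replicate 3, ox-LDL replicate 2 or ox-LDL replicate 5. The 3 alpha genes lie on chromosome 7 of mm9, with 1386 bases between Itgam and Itgax and 727502 bases between Itgal and Itgam. Thus Itgal, which lies apart, was called and the adjacent pair was not.

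Itga4 (gene 16401, chr2:79095583-79173280, plus strand), the alpha4 chain of the VCAM-1 receptor VLA-4, moved opposite to Vcam1. It was at 45.0, 47.5, 51.3, 39.6 and 33.4 CPM in control libraries and at 30.7, 12.6, 21.7, 22.1 and 19.7 CPM in ox-LDL libraries. All ox-LDL values lay below all control values, with the smallest gap between 30.7 and 33.4 CPM. The mean fell from 43.4 ± 7.02 to 21.3 ± 6.48 CPM, a 2.03-fold lower level (log2 fold change -1.02, SE 0.23, 95% interval -1.54 to -0.50, adjusted p = 0.00593). This call was close to the threshold. It was lost in 12 of 25 alternative settings, among them the omission of control replicate 1, 2, 3 or 4 or of ox-LDL replicate 3, 4 or 5 (adjusted p 0.0105 to 0.0173). With the trend of expression on gene length removed in each library, the log2 fold change was -1.42 and the adjusted p 0.000291. Itga4 overlaps exons of Cerkl on the other strand, and its counts were not whole numbers in all 10 libraries, so reads may have been divided between overlapping genes.

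Itgav (gene 16410, chr2:83564554-83647073, plus strand) encodes the alphaV chain of the vitronectin receptors. It was at 13.3, 23.7, 26.7, 14.9 and 39.4 CPM in control libraries and at 43.9, 16.6, 54.3, 50.2 and 48.0 CPM in ox-LDL libraries. Of the 5 ox-LDL libraries, 4 lay above all controls, and replicate 2 lay among the controls. The log2 difference of 0.85 (95% interval 0.04 to 1.67) did not pass over all genes (adjusted p = 0.0951), and it kept that side of the threshold in 25 of 25 alternative settings. Over these the adjusted p ran from 0.0105 to 0.379. It came closest to the threshold without ox-LDL replicate 2, where the log2 difference was 1.02. Its exons overlap the antisense transcript Gm13684, whose reads cannot be told apart without strand.

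The common beta chains did not pass. Itgb1 (gene 16412, chr8:131209554-131257100, plus strand), the beta chain of VLA-4 and of many matrix receptors, was at 408.3, 480.1, 483.4, 443.0 and 559.9 CPM in control libraries and at 411.8, 308.2, 535.0, 468.6 and 894.0 CPM in ox-LDL libraries. The spread was wider in the ox-LDL group, from replicate 2 to replicate 5. Its log2 difference of 0.14 (95% interval -0.51 to 0.79, adjusted p = 0.759) turned negative under scaling by the upper quartile or by library size alone and on the FPKM scale. Itgb2 (gene 16414, chr10:76992997-77028453, plus strand) was at 626.8, 1127, 1225, 642.9 and 840.8 CPM in control libraries and at 915.8, 637.6, 1303, 1676 and 1184 CPM in ox-LDL libraries, with overlap. The log2 difference was 0.36 (95% interval -0.36 to 1.08, adjusted p = 0.436). For both beta chains the interval lies within about 1 log2 unit of no change.

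**Figure D2:**
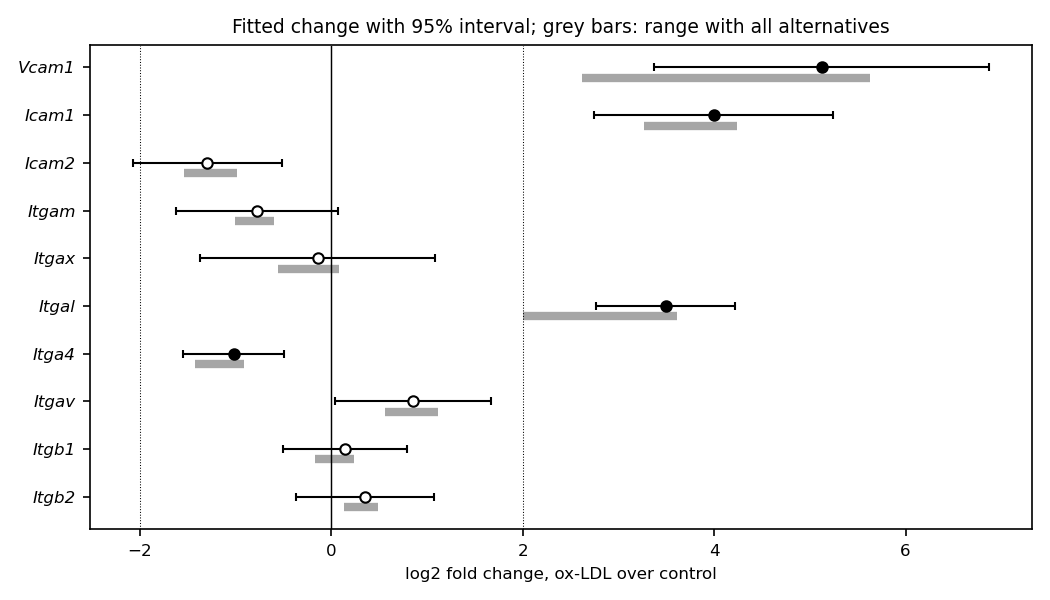
Log2 fold change of ox-LDL over control for each of the 10 genes (points, filled where the adjusted p is below 0.01) with 95% intervals on 8 degrees of freedom (lines) and the range over the alternative settings (grey bars), on a horizontal axis in log2 units with dotted lines at -2 and 2. Vcam1, Icam1 and Itgal stand above 2, Itga4 and Icam2 lie below 0, and the intervals of Itgam, Itgax, Itgb1 and Itgb2 include 0.

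The order of the 10 genes was read from FPKM, which divides by gene length and so allows levels of different genes to be compared. In control libraries the mean FPKM was 359.7 ± 142 for Itgb2, 151 ± 29.5 for Itgb1, 73.9 ± 35.7 for Itgam and 60.6 ± 30.5 for Itgax. It then fell to 5.22 ± 2.41 for Icam1, 4.98 ± 1.02 for Itga4, 4.92 ± 1.09 for Icam2 and 3.83 ± 1.95 for Itgav, and was lowest for Itgal at 0.558 ± 0.176 and Vcam1 at 0.362 ± 0.268. Between neighbours in this order the ranges over libraries were separate for Itgb2 above Itgb1, Itgax above Icam1 and Itgav above Itgal, and overlapped for the other 6 pairs. The beta2 and beta1 chains and the alphaM and alphaX chains thus formed an abundant set, and Vcam1 and Itgal were near the bottom.

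In ox-LDL libraries Itgb2 (418 ± 199 FPKM) and Itgb1 (142 ± 51.4) were still the highest. Icam1 came next with 69.6 ± 52.9 FPKM, beside Itgax at 53.6 ± 41.3 and Itgam at 39.95 ± 21.9. Vcam1 was at 9.76 ± 10.3, Itgav at 6.40 ± 2.94, Itgal at 5.66 ± 2.48, Itga4 at 2.32 ± 1.13 and Icam2 at 1.81 ± 1.01 FPKM. The ranges of all 9 neighbouring pairs overlapped. Within libraries the order held in all 5 for 4 of these pairs, Itgb2 above Itgb1, Itgb1 above Icam1, Itgam above Vcam1 and Itgal above Itga4. It was not settled for Icam1, which lay above Itgax in 2 of 5 libraries, or for Vcam1, which lay above Itgav in 3 of 5 and whose median of 5.35 FPKM was below the 7.66 of Itgav. The means of Icam1 and Vcam1 were carried by replicate 5, at 153.5 and 27.97 FPKM. The length that links counts to FPKM was not constant over libraries for Vcam1 (CV 10.6%) and Itgb1 (CV 7.48%), against at most 1.64% for the other 8, so their FPKM are less exact.

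Since 1 beta2 chain serves several alpha chains, the share of each alpha gene in the summed FPKM of Itgam, Itgax, Itgal and Itgad was compared within libraries by a 2-sided exact permutation test over all arrangements of the libraries, with p adjusted over 7 measures. Itgal made up 0.508%, 0.369%, 0.300%, 0.313% and 0.772% of the sum in control libraries. In ox-LDL libraries its share was 5.53%, 8.91%, 3.49%, 4.54% and 12.9%. The shares were separate between groups, and the mean rose from 0.452 ± 0.197% to 7.07 ± 3.84% (exact p = 0.00794, the smallest this design can give, adjusted p = 0.037). LFA-1 alpha transcripts therefore remained the minor part of the beta2 partners in each of the 10 libraries.

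Itgam took 54.7 ± 13.2% of the sum in control and 43.5 ± 15.8% in ox-LDL libraries (exact p = 0.262, adjusted p = 0.367). Itgax took 44.9 ± 13.3% and 49.4 ± 19.2% (exact p = 0.651, adjusted p = 0.651). The Itgax share was lowest in replicate 5 of both groups, at 24.7% and 19.4%, where Itgam was at its highest, 74.5% and 67.7%. Itgad had at most 2 counts in any library. Neither of the main macrophage alpha chains had a share that differed beyond the spread between libraries.

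The summed FPKM of the 4 alpha genes was 0.380 ± 0.0837 of the Itgb2 FPKM in control libraries and 0.2275 ± 0.0812 in ox-LDL libraries (exact p = 0.0159, adjusted p = 0.037). Values ran from 0.249 to 0.479 in control and from 0.154 to 0.357 in ox-LDL libraries, and the groups overlapped through control replicate 5 and ox-LDL replicate 1. The ratio of Itga4 to Itgb1, the 2 chains of VLA-4, was 0.0388, 0.0380, 0.0380, 0.0321 and 0.0217 in control libraries. In ox-LDL libraries it was 0.0285, 0.0137, 0.0160, 0.0156 and 0.00941. The ratio was lower in the ox-LDL group (0.0337 ± 0.00723 against 0.0166 ± 0.00714, exact p = 0.0159, adjusted p = 0.037), with control replicate 5 inside the ox-LDL range. The ratio of Itgav to Itgb1 was 0.02415 ± 0.00814 in control and 0.0434 ± 0.0142 in ox-LDL libraries, which did not pass (exact p = 0.0556, adjusted p = 0.0972). With 1 library left out the 3 measures that passed had adjusted p values of 0.037 to 0.0741, above 0.05 in 8 of 10 omissions, and the omission of control replicate 1, 2, 3 or 4 or of ox-LDL replicate 2, 3, 4 or 5 each ended the calls. The Itgal share stayed separate between groups in each omission, so its exact p was the smallest that the libraries left could give. Its adjusted p, here as with all libraries, also rested on the p of the other measures. For the Itgal share the lost calls therefore do not reflect overlap.

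**Figure D3:**
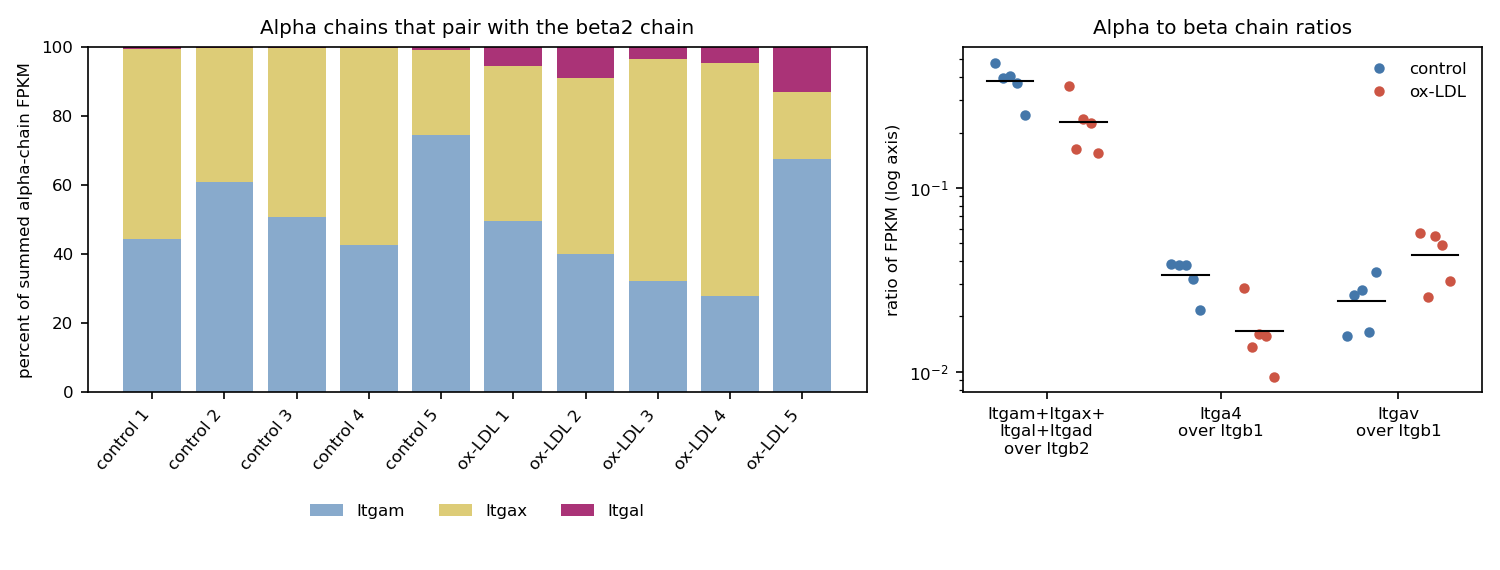
Integrin partner measures from FPKM: left, stacked bars of the percent of the summed beta2 alpha genes held by Itgam, Itgax and Itgal in each library, and right, the ratios of alpha to beta genes on a log axis, with libraries as points and group means as lines. The Itgal share is separate between groups (0.300 to 0.772% against 3.49 to 12.9%), whereas the Itgam and Itgax shares overlap.

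The libraries' deviations from their group means show how the 10 genes varied together, as a description over 10 libraries in 2 groups. Icam1 and Itgb1 deviated alike (r = 0.82), as did Itgam and Itga4 (r = 0.82) and Itgav and Itgb2 (r = 0.76). Vcam1 and Itgax deviated oppositely (r = -0.87), as did Icam1 and Icam2 (r = -0.85). Replicate 5 of both groups carried the highest Vcam1 and the lowest Itgax, and libraries also shared the length trend described above. What part replicate 5 or the length trend has in these values was not tested.

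Among 7638 genes with a mean of at least 10 CPM, the patterns nearest to each gene over the 10 libraries were found by Pearson's r on log2(CPM + 1), again as a description without a test. For Vcam1 these were Ms4a4c (r = 0.99, and 0.95 within groups), Ifit1 (0.985) and Ifit3 (0.984), the last 2 of which encode interferon-induced antiviral proteins. For Icam1 they were Tnfaip3 (r = 0.996, and 0.97 within groups), the NF-kappaB feedback inhibitor A20, then Gna13 (0.995) and Noc4l (0.994). For Itgal they were Coa5, Acsl1 and Rsad2, where the r of 0.985, 0.984 and 0.984 dropped to 0.92, 0.75 and 0.72 within groups. For Itga4 they were Stx17 (0.986), Crat (0.981) and Ptpra (0.98). The drop within groups was largest for Acsl1 and Rsad2 among these 12 genes.

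The nearest genes were also found for the members that were not called. For Icam2 they were Snapin, Prkag1 and Tpgs2 (r 0.96 to 0.97, and 0.88 to 0.92 within groups), for Itgam Dock11, Txndc5 and Abcd3 (0.96 to 0.99) and for Itgax Stau2, Ints6l and Rassf8 (0.92 to 0.94). For Itgav they were Vps8, Copg1 and Baz1b (0.98 to 0.985), for Itgb1 Rrp1, Cdc5l and Picalm (0.96 to 0.98) and for Itgb2 Gramd1b, Aff4 and Macf1 (0.95 to 0.97). None of the 10 genes had another of the 10 among its nearest 3.

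A set of 6 lists of genes that surround these integrins held 83 tested genes, of which 19 (22.9%) were called higher and 6 (7.23%) lower, beside 9.4% and 5.35% of all genes. Of those called higher, 6 matrix and plasma ligands, 2 other alpha subunits and 1 adhesion receptor had a control mean below 1 CPM. Over all genes it was 265 of 1189. Such a gene can enter the test through its ox-LDL values alone, so 22.9% and 9.4% are not on equal terms. The pooled share was uneven over the lists. The matrix and plasma ligands, with 18 tested genes, held 10 of the 19 higher calls, and the activation and adaptor genes held 3 in 29. Of 13 other alpha subunits 6 were tested, and Itga1, Itga5 and Itga9 rose while none fell (median log2 fold change 1.49). Itga5, the alpha chain of the classical fibronectin receptor, went from 36.0 ± 13.4 to 138 ± 71.5 CPM (adjusted p = 0.00366). Its call was lost in 7 of 25 alternatives (adjusted p up to 0.0278), among them the omission of control replicate 1, 2, 3 or 4. Itga1 and Itga9 had control means below 1 CPM, and the call of Itga9 was lost in 14 of 22 alternatives (adjusted p up to 0.0376). Itga6, the laminin receptor alpha chain, had separate values, 24.5 ± 7.10 and 7.48 ± 5.17 CPM, but its adjusted p of 0.0101 did not pass.

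Of 7 other beta subunits 3 were tested and 1 fell. Itgb5, which pairs with Itgav, was at 113 to 136 CPM in control and at 18.2 to 47.7 CPM in ox-LDL libraries, without overlap. Its log2 fold change was -2.03 (SE 0.24, adjusted p = 0.000113), and it stayed below an adjusted p of 0.01 in 25 of 25 alternative settings. The other tested beta chains were Itgb3 (10.2 ± 2.44 and 10.8 ± 6.39 CPM, adjusted p = 0.901) and Itgb7, the other partner of Itga4 (52.6 ± 43.8 and 94.1 ± 39.2 CPM, adjusted p = 0.264). Thus among the alphaV partners tested, Itgb5 was called and Itgb1 and Itgb3 were not, although the differences between these genes were not tested.

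Of 31 activation and adaptor genes 29 were tested, of which Zyx, Fermt2 and Tes rose and Cytip fell (median 0.19). Zyx (zyxin), a focal adhesion protein, rose from 52.2 ± 27.5 to 418 ± 245 CPM (log2 fold change 3.00, SE 0.48, adjusted p = 0.000766). Cytip, which binds cytohesin-1 and restrains LFA-1 adhesion, fell from 26.9 ± 5.86 to 6.46 ± 5.86 CPM (log2 fold change -2.06, SE 0.46, adjusted p = 0.00608), and this call was lost in 9 of 25 alternatives, including without any 1 of control replicates 1 to 4 or of ox-LDL replicates 1, 3 and 4. Tln1 (talin, adjusted p = 0.563) and Fermt3 (kindlin-3, adjusted p = 0.765), the proteins that switch leukocyte integrins on, did not pass. Fermt2 and Tes lost their calls in 10 of 22 and 12 of 25 alternatives.

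Of 27 selectin-type and other cell adhesion receptors 14 were tested, with Icam5 higher and Cd48 and Ceacam1 lower (median 0.44). Cd48, a ligand of CD2 and CD244, fell from 379 ± 117 to 95.1 ± 45.7 CPM (adjusted p = 0.00119). Icam5 went from 0.384 ± 0.179 to 2.51 ± 1.62 CPM (adjusted p = 0.00314) and stands 1506 bases from Icam4, itself 575 bases from Icam1. Of 13 tetraspanins and integrin-associated membrane genes, all tested, Cd82 and Slc3a2 (the heavy chain CD98) rose and Tspan32 and Emp1 fell (median -0.28). Slc3a2 rose from 112 ± 35.7 to 425 ± 222 CPM (adjusted p = 0.00255). Cd9, a tetraspanin at 1093 ± 108 CPM in control, was at 590 ± 132 CPM in the ox-LDL group without overlap, with an adjusted p of 0.0123.

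Matrix and plasma ligands of integrins were the list with the most calls, with 10 of 18 tested genes higher (9.4% of all genes) and none lower, 9 of them above a log2 fold change of 2, and a median of 2.18. The count was 6 with library size alone, 3 with at least 10 counts in every library and 2 on either FPKM scale, and Lamc1, Lamb1 and Nid1 lost their calls in 17 of 25, 13 of 22 and 13 of 22 alternatives. Of the 10, 6 had a control mean below 1 CPM, against 265 of the 1189 genes called higher over all genes. A gene that low in the controls can enter the test through its ox-LDL values alone, and can then hardly be called lower. The part of such genes differs, so 10 of 18 and 9.4% are not on equal terms. Tgfbi, a secreted matrix protein bound by integrins, rose from 10.8 ± 3.10 to 81.4 ± 62.3 CPM (log2 fold change 2.92, SE 0.49, adjusted p = 0.00115). Ccn2, a matricellular protein, was at 0.183 ± 0.0850 and 5.40 ± 7.85 CPM (log2 fold change 4.86, adjusted p = 0.00251), and without ox-LDL replicate 5 its log2 fold change was 3.35. The collagen genes Col1a1 (2.34 ± 1.39 to 15.5 ± 8.73 CPM, adjusted p = 0.0012) and Col1a2 (3.93 ± 2.77 to 20.8 ± 8.70 CPM, adjusted p = 0.00248) also rose. Spp1 (osteopontin), at 8991 ± 3576 and 5813 ± 2142 CPM, did not pass (adjusted p = 0.218), nor did Fn1 (109 ± 43.3 and 124 ± 72.1 CPM, adjusted p = 0.77).

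**Figure D4:**
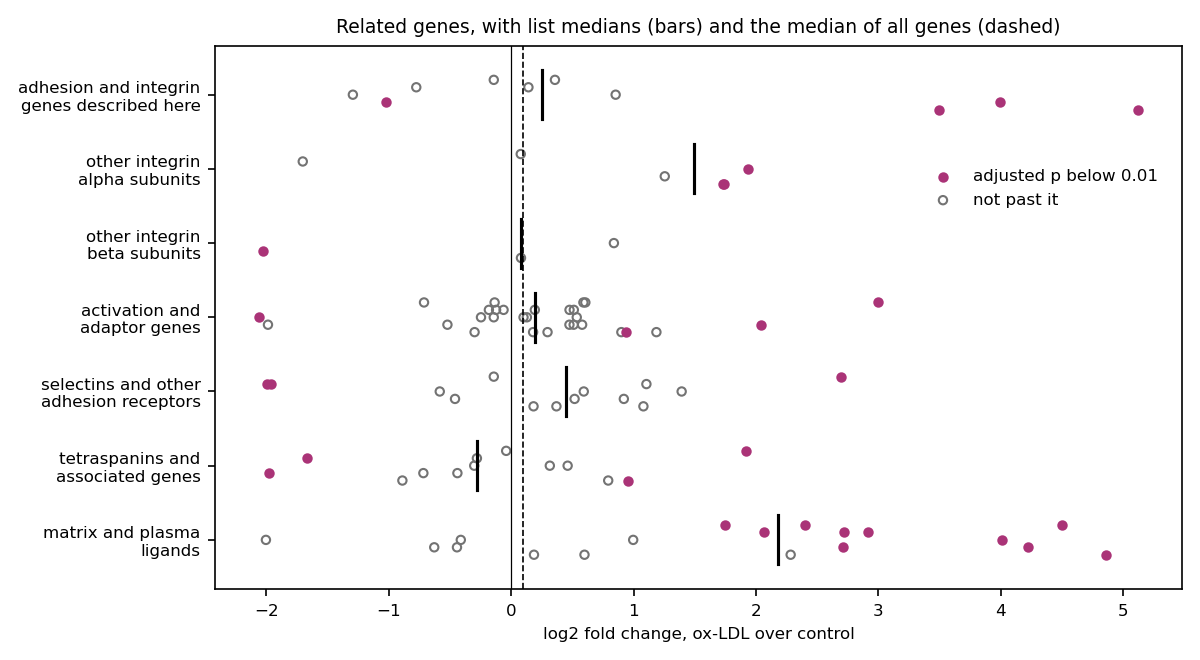
Log2 fold change of ox-LDL over control for the 10 genes and every tested gene of the 6 surrounding lists (points, horizontal axis in log2 units), with genes at an adjusted p below 0.01 filled, list medians as short bars and the median of all genes as a dashed line. Matrix and plasma ligands have their median at 2.18, and the median of all 12654 genes is 0.10.

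Markers of other cells moved beside these ligands. The summed level of 11 mesothelial, stromal and endothelial markers, all in the table, was 17.65 to 62.3 CPM for controls against 66.5 to 179 CPM for ox-LDL libraries, without overlap, and 3 of the 6 tested markers rose. Dcn accounted for 28.5 ± 10.3 and 75.6 ± 18.5 CPM of this, and the list shares Col1a1 and Col1a2 with the matrix ligands. Pdgfra, a stromal marker, was at 4.11 ± 2.53 and 11.6 ± 9.09 CPM. The mesothelial Upk3b was at 0.544 ± 0.203 and 0.0843 ± 0.110 CPM and Upk1b at means of 0.443 and 0.114 CPM. Of the others, Wt1 was at most 2.32 CPM in the controls against 2.90 in the ox-LDL group, Msln at most 0.252 and 0.319 CPM, and the endothelial Cdh5, Kdr and Tie1 at most 0.302 and 1.38, 4.86 and 2.50, and 0.296 and 0.261 CPM. None of the 11 was at 0 in all libraries, and their part in the matrix ligands, Vcam1 and Icam1 was not tested.

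Other leukocytes were sought because Itgal and Itga4 are abundant in lymphocytes. The summed level of 9 T and NK cell markers was 1.36 to 2.25 CPM in the controls against 0.991 to 1.70 CPM in the ox-LDL group, and that of 7 B cell markers was 152 to 201 and 70.7 to 217 CPM, with Cd79a at most 0.554 and 0.956 CPM. The B cell sum was mostly Blnk (134 ± 15.5 and 138 ± 49.7 CPM) and Cd22 (48.5 ± 4.29 and 19.1 ± 6.37 CPM). Within the T and NK cell list, Lck was at 0.642 ± 0.177 and 1.02 ± 0.397 CPM, Cd4 at 0.624 ± 0.294 and 0.132 ± 0.162 CPM and Klrb1c at 0.400 ± 0.179 and 0.0203 ± 0.0279 CPM, and Cd3e and Cd8a were at 0 in the controls and at most 0.0518 and 0.200 CPM in the ox-LDL group. The part of lymphocytes in the Itgal and Itga4 values was not tested. The 8 neutrophil markers summed to 19.45 to 45.0 and 24.3 to 92.4 CPM, and 1 of the 2 tested markers rose. S100a8 was at 10.5 ± 2.96 and 56.0 ± 28.3 CPM, while S100a9 was at most 0.400 and 0.250 CPM. Mmp8 went the other way, at 20.4 ± 13.3 and 7.81 ± 3.95 CPM. Ltf (0.989 ± 0.479 and 0.0515 ± 0.0519 CPM) and Cxcr2 (0.502 ± 0.128 and 0.0515 ± 0.0366 CPM) were also lower. By group mean, Retnlg was lower in the ox-LDL group too, and Camp and Ngp were higher. Platelet markers, 5 genes of which Gp9 was at 0 in all libraries, summed to 24.2 to 70.7 and 61.3 to 346 CPM and consisted mostly of Pf4 (40.7 ± 17.9 and 166 ± 112 CPM). Eosinophil and mast cell markers (8 genes) summed to 3.01 to 11.4 and 0.678 to 3.30 CPM and dendritic cell markers (7 genes) to 3.55 to 7.03 and 3.52 to 5.63 CPM. The dendritic cell markers did not move together, and 1 of the 3 tested was called higher. By group mean Clec9a (0.351 and 1.43 CPM), Zbtb46, Flt3 and Xcr1 were higher in the ox-LDL group. Batf3 (3.01 and 1.33 CPM) and Cd209a were lower, and Siglech was nearly equal. The 8 markers of resident peritoneal macrophages summed to 61.7 to 95.7 and 46.9 to 90.5 CPM, mostly Folr2 (67.4 ± 9.95 and 61.2 ± 17.2 CPM). Of the 5 tested, 1 was called higher. By group mean Timd4 (0.151 and 1.27 CPM), Lyve1, Garnl3 and Prg4 were higher in the ox-LDL group, and Gata6, Vsig4, Folr2 and Selp were lower.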

How the data were processed

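RNA from 5 control and 5 ox-LDL libraries was sequenced on a BGISEQ-500. Per the labels and the submitters' processing notes, FastQC was used for quality, the genome build was mm9, the aligner was HISAT2 (version 2.0.5), and sorting and assembly were done by SAMtools (version 1.4) and by StringTie (version 1.3.3.13). The authors deposited unnormalized estimated counts, 1 per gene and library, of which 13.6% were not whole, and the counting step and its use of strand are not given in the sources used here. The authors also deposited 1 value per gene and library without naming its unit. Counts divided by these values and the library total gave a near-constant length per gene (median CV 1.15% over 7037 genes), so the deposited values were treated as FPKM.

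Rows of 9788 circular RNAs (1.44% to 2.24% of counts) were left out. Estimated counts were rounded, filtered with filterByExpr, scaled by TMM and tested with edgeR 4.0.16 (quasi-likelihood, robust) in R 4.3.3 with Benjamini-Hochberg adjustment, without covariates. The test was run over 12654 genes, whose biological coefficient of variation was 37.3%. Genes were called at an adjusted p below 0.01, and a log2 fold change above 2 in size was counted separately. Partner shares and ratios were compared from FPKM by exact permutation in Python 3.11.15 with SciPy 1.17.1, called at an adjusted p below 0.05. Similar genes were ranked by Pearson's r. Coordinates came from the GENCODE annotation of NCBIM37 (mm9), symbols and promoters from RefSeq tables of GRCm38.p6.

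The genes, lists and tests were chosen with earlier results of these data known. Named genes were the 10 members, in each list the genes past both thresholds with at least 5 CPM in the higher group (up to 4 per direction), and the 3 genes most similar to each member. Itga1, Itga5, Itga6, Itga9, Itgb3, Itgb7, Fermt2, Tes, Tln1, Fermt3, Icam5, Cd48, Ceacam1, Cd9, Cd82, Slc3a2, Tspan32, Emp1, Spp1 and Fn1, and Lamb1, Lamc1 and Nid1, were named after their values were seen.

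Alternatives were DESeq2 1.42.0, limma-voom (limma 3.58.1), upper-quartile and library-size scaling, removal of each library's length trend, other filters, NCBI identifiers alone, all rows, limma on log2(FPKM + 1) and log2(FPKM + 0.1) keeping genes that reached 1 FPKM in 5 libraries, the replicate number as a block, an adjusted p below 0.05 and omission of each library. Omission of both replicates 5, and of ox-LDL replicate 2 with the length trend removed, were added after seeing the data. The test was checked on simulated data of 12654 genes, where edgeR recovered 10 of 100 genes changed by 1 log2 unit and 80 of 100 changed by 2, with 0 false calls. On the same data DESeq2 recovered 36 and 94 of 100, with 11 false calls. Counts of all pairs of libraries within a group differed by more than sampling noise, so none was another library sequenced again. Whether libraries shared RNA or a culture cannot be read from this.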

Additional observations from a re-analysis of the deposited data

Results flagged for a closer look

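In 34 groups of 5 libraries (10 genes and 7 partner measures in 2 groups) the highest or lowest library was compared with its neighbour. In 3 the gap to the neighbour exceeded Dixon's limit of 0.71 of the group's range, where chance alone gives about 1.7. Itgal in control replicate 4, at 1.39 CPM, lay below the other controls by 0.844 of the range. Vcam1 in ox-LDL replicate 5, at 126.7 CPM, lay above the other ox-LDL libraries by 0.755 of the range. Itgav in ox-LDL replicate 2, at 16.6 CPM, lay below the others by 0.724 of the range, in the library with the lowest TMM factor (0.593).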

How the results depend on the processing

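The calls of Vcam1 (24 alternatives), Icam1 and Itgal (25 each) held in every alternative, with log2 fold changes of 2.62 to 5.63, 3.26 to 4.23 and 2.00 to 3.61. Vcam1 could not be tested with at least 10 counts in every library. The cause was not tested for any of the changes that follow, except that omissions and stricter filters leave fewer libraries or genes. The number of members called lower was 2 with DESeq2, without a filter and at an adjusted p below 0.05, 0 with library size alone, with the replicate block and without both replicates 5, and 0 to 2 with 1 library left out. The sign of Itgb1 turned with the upper quartile (-0.026), library size alone (-0.036), both FPKM fits (-0.17), and without both replicates 5 (-0.12), and over single omissions Itgb1 ran from -0.155, without ox-LDL replicate 5, to 0.243. The sign of Itgax turned in 3 omissions, over which it ran from -0.485 to 0.077, and the difference of its share of the beta2 partners ran from -0.52 to 12.0 percentage points over omissions. The surrounding genes called higher, 19 in all, were 9 with library size alone, 8 with at least 10 counts in every library, 4 and 3 with log2(FPKM + 1) and log2(FPKM + 0.1), and 10 to 22 over omissions. Those called lower, 6 in all, were 12 with DESeq2, 10 with the upper quartile, 13 at an adjusted p below 0.05 and 5 to 13 over omissions. The 3 partner measures that passed (Itgal share 6.62 points, alpha sum to Itgb2 -0.152, Itga4 to Itgb1 -0.0171) had an adjusted p of 0.146 with the replicate block as a paired sign-flip test, which cannot go below an unadjusted p of 0.0625. Without both replicates 5 they were 5.24, -0.167 and -0.0183 (adjusted p = 0.0667 by exact permutation). There the groups were separate for all 3, so each exact p was the smallest that the libraries left could give. Over single omissions the 3 measures ran from 5.16 to 7.52, -0.185 to -0.127 and -0.0201 to -0.0153. The correlation of deviations between libraries of the same number was -0.04, -0.42, 0.51, -0.38 and 0.42 for numbers 1 to 5. For unlike numbers it ran from -0.535 to 0.598. The length trend of single libraries enters these values, so they cannot decide whether the replicate numbers pair the libraries. The median of all genes shifted by -0.14 with the upper quartile, -0.16 with library size alone, -0.22 with log2(FPKM + 1) and -0.24 with log2(FPKM + 0.1). Of all genes 1189 were called higher and 677 lower, against 704 and 583 with library size alone, 956 and 808 with the upper quartile, 570 and 769 with log2(FPKM + 1) and 1755 and 1502 without ox-LDL replicate 2. At this depth and spread edgeR seldom recovered a change of 1 log2 unit in simulation. A member that did not pass may therefore differ by that size where its interval allows it. For Itgb1 the interval (-0.51 to 0.79) does not.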
